A study of Mus musculus with 22 samples.

Results

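Synaptic adhesion molecules are membrane proteins that hold the presynaptic and postsynaptic sides of a synapse together and help to specify which partners connect. The set described here holds 42 genes listed by name because they belong to families of such molecules, and all 42 were found among the 24061 genes of the deposited count table. The list was made with earlier results of these data known. It comprises neurexins and contactin-associated proteins, neuroligins, LRRTMs, SLITRKs and Il1rapl1, LAR-type receptor phosphatases, teneurins, latrophilins, FLRTs, SynCAMs (Cadm genes), contactins, NCAMs and N-cadherin. Every member passed the filter on low counts, which left 14564 genes for testing.

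RNA of the nucleus accumbens, the ventral striatal region best known for reward and drug responses, was sequenced from male C57BL/6J mice aged 7 to 9 weeks. The mice drank water and kept a normal microbiome, or received nonabsorbable antibiotics that depleted it, and were given saline or morphine at 20 mg/kg/day over 7 days. The 4 groups are called water-saline (n = 6 libraries), water-morphine (n = 5), antibiotic-saline (n = 6) and antibiotic-morphine (n = 5), and a library is named by its group and the number in its label. The labels do not say which libraries came from separate animals, so the p-values cover only the spread between libraries, which may be technical.

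On the presynaptic side, neurexins and LAR-type phosphatases bind across the cleft to postsynaptic partners such as neuroligins, LRRTMs, SLITRKs and Il1rapl1. Teneurins bind latrophilins, which are adhesion G protein-coupled receptors, and FLRTs join the same complexes. SynCAMs, NCAMs and cadherins bind mainly to molecules of their own or a related family, while contactins pair with molecules such as the contactin-associated proteins. In the striatum these molecules sit at the cortical and thalamic inputs to projection neurons, at contacts between local neurons, and on glia.

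Promoter windows from RefSeq (build GRCm38.p6) were found for 31 of the 42 members, in 45 windows of 300 bases that run from 250 bases before to 50 bases after an annotated start. The 250 bases before the start are printed for Tenm1, Tenm4 (which has a pair of annotated starts) and Il1rapl1, because these genes gave the smallest p-values among the members in the morphine comparisons. Matches to TGACGTCA (the cAMP response element), TGANTCA (AP-1) or CACGTG (E-box) on either strand would stand in capitals. None of these 4 windows holds one, also not in the 50 bases after the start, so the letters are all in lower case.
Tenm1, chrX:43274785-43275034, minus strand: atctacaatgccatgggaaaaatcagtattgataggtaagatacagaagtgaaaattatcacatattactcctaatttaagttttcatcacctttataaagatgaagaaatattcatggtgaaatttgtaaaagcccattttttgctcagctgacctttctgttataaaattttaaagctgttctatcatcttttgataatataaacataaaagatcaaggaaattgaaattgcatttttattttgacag
Tenm4, chr7:96170994-96171243, plus strand: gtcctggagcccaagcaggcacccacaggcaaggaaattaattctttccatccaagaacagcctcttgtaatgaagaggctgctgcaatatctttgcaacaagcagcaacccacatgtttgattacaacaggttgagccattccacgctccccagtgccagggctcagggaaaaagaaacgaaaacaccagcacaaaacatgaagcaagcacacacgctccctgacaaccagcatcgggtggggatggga
Tenm4, chr7:96211421-96211670, plus strand: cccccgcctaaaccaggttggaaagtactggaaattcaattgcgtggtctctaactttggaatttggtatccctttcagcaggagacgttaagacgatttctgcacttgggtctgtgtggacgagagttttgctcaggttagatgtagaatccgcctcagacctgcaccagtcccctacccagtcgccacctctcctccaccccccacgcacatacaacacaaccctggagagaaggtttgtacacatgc
Il1rapl1, chrX:88115949-88116198, minus strand: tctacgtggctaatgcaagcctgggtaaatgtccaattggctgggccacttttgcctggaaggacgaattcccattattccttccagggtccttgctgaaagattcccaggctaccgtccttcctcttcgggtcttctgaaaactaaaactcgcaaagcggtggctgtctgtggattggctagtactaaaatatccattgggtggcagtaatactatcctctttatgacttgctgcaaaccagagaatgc
The Tenm1 window had a GC content of 27.0%, the lowest of the 45 member windows, whose median was 53.3% beside 52.7% over all 32851 windows of the table. The Il1rapl1 window had 45.0% GC and the Tenm4 windows 52.0% and 52.3%. Motif matches stood elsewhere in the families. The element TGACGTCA occurred in 3 of the 45 member windows (6.67%) and in 1.79% of all windows. The 30 bases around each are printed with the match in capitals, chosen because they held it; it begins 63 bases before the start in Tenm3, 197 bases before it in Slitrk2, and just after it in Ptprs.
Tenm3, chr8:48674735-48674764, minus strand: gatgctttcgcTGACGTCAtgccaaccttt
Slitrk2, chrX:66652951-66652980, plus strand: cctctcctccgTGACGTCAcccctagtcct
Ptprs, chr17:56476457-56476486, minus strand: ggcggaaggggTGACGTCAccggctggggg
TGANTCA was found in 3 of 45 member windows (6.67%, against 7.81% of all windows), those of Cadm3, Cntn4 and Nrxn3. CACGTG also occurred in 3 (6.67%, against 7.15%), those of Cadm2, Flrt2 and Ptprs. TGACGTCA and CACGTG read the same on both strands, and none of the 3 motifs contains another. A match is a description of letters, and of the genes holding one only Nrxn3 is among those that passed a morphine test. Slitrk4, Cdh2 and Ncam1, which also passed such a test, had no window to search.

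Libraries held 11789713 to 19755139 counts, of which 9357299 to 15330947 fell in genes. Levels are given as CPM, counts scaled to each library's gene total and TMM factor, and levels of different genes are compared only per kilobase of the longest coding transcript. The summed level of 20 striatal projection neuron markers was 6390 to 14400 CPM per library and that of 20 cortical and septal neuron markers 631 to 2420 CPM, and no marker was at 0 in any group. Some libraries stood apart. The cortical marker score (mean log2 deviation of those markers) was 0.875 in water-morphine 4, against -1.15 to -0.209 in the other water-morphine libraries, and it was 1.03 in antibiotic-saline 5 and -1.2 in water-saline 4. Malat1, a nuclear RNA, was at 2460 CPM in antibiotic-saline 6 and 1010 CPM in antibiotic-morphine 4, and between 164 and 512 CPM in the other 20 libraries. Longer transcripts were also relatively more abundant in some libraries. Regressing the log2 deviation of each gene on the log2 of its transcript length gave, per library, a length slope of -0.078 to -0.0111 in water-saline, 0.0282 to 0.047 in water-morphine, -0.0534 to 0.0476 in antibiotic-saline and 0.0255 to 0.0552 in antibiotic-morphine.

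All 42 genes were detected in all 22 libraries, with a lowest count of 48 (Il1rapl1). Levels per kilobase spanned 151-fold. Cadm4, a SynCAM known from contacts between axons and myelinating glia, had the highest at 118 CPM per kb. It was followed by Cadm3 (89.7 CPM per kb), the latrophilin Lphn1 (84.7 CPM per kb), the LAR-type phosphatase Ptprs (67 CPM per kb) and the contactin Cntn1 (64 CPM per kb). Nrxn2 (52 CPM per kb), Cntnap1 (51.8 CPM per kb), a contactin-associated protein of axons at the edge of the node of Ranvier, and Ncam1 (51.6 CPM per kb) lay close together, and the library values of these 3 overlap. These 8 genes were the members above 50 CPM per kb.

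In each other family the most abundant gene was lower. The LRRTMs were led by Lrrtm3 (29.7 CPM per kb) and Lrrtm1 (29.5 CPM per kb), which overlap in their library values, the teneurins by Tenm3 (24.5 CPM per kb), the SLITRKs by Slitrk5 (15.4 CPM per kb), the FLRTs by Flrt3 (14.4 CPM per kb) and the neuroligins by Nlgn3 (13.3 CPM per kb). Cdh2, which encodes N-cadherin and was the classical cadherin of the set, stood at 23 CPM per kb. Tenm1 (3.98 CPM per kb), Slitrk2 (3.07 CPM per kb), Cntn5 (2.87 CPM per kb), Slitrk4 (2.08 CPM per kb) and Il1rapl1 (0.781 CPM per kb) were the 5 members under 5 CPM per kb. Tenm1, Slitrk4 and Il1rapl1, from this low end, are among the genes that passed a morphine test.

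**Figure D1:**
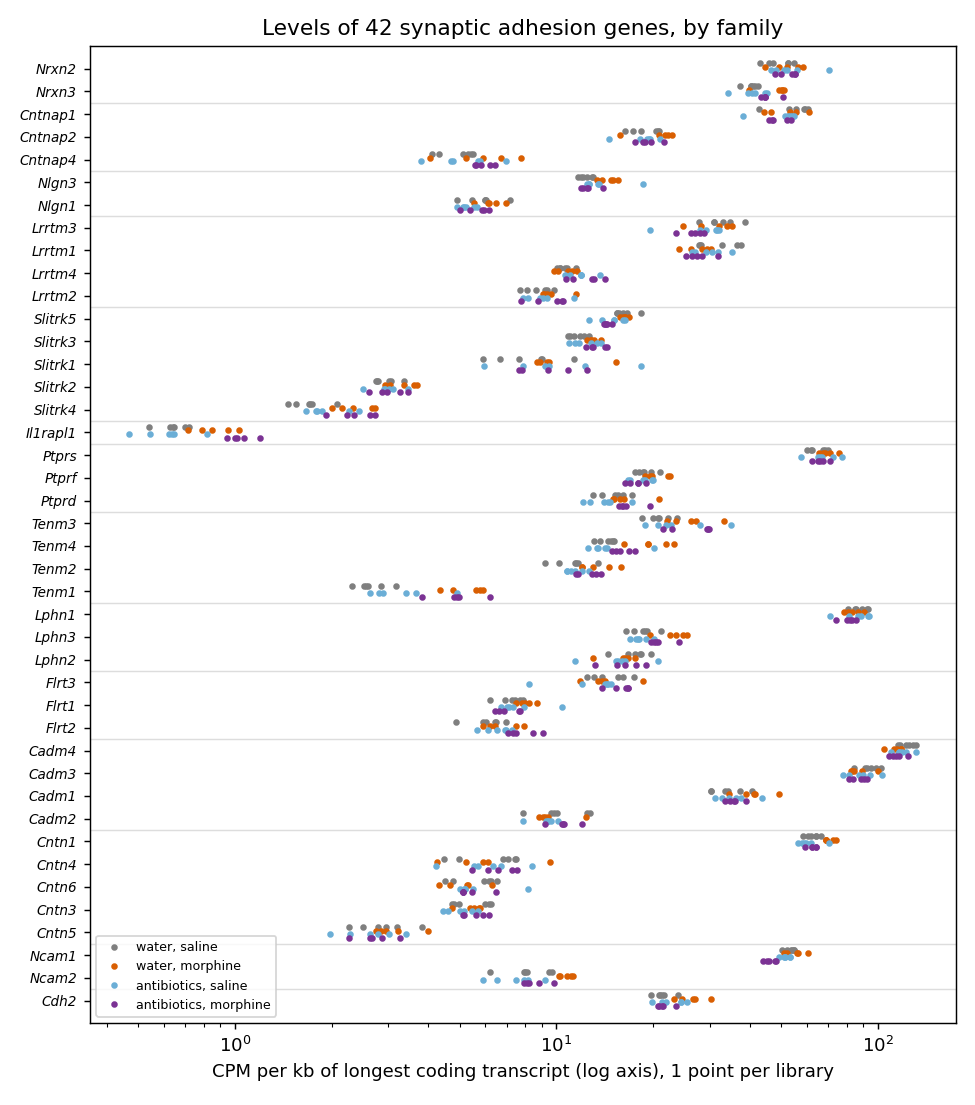
Level of each member in CPM per kb of its longest coding transcript (log axis), with 1 point per library, coloured by group and ordered by family. Cadm4 at 118 and Il1rapl1 at 0.781 CPM per kb mark the ends when all libraries are averaged.

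The first comparison asked how morphine changed these genes in mice with a normal microbiome. In water mice, 9 of the 42 members were higher under morphine and 0 were lower at a Benjamini-Hochberg adjusted p under 0.05 in the edgeR quasi-likelihood test. Among all 14564 genes 3.91% were higher and 2.67% lower. Because the members were chosen with earlier results of these data known, an excess over these shares is no independent support. The 9 were the teneurins Tenm1 and Tenm4, the latrophilin Lphn3, the cadherin Cdh2, Slitrk4, Ncam2, the neurexin Nrxn3, Il1rapl1 and the contactin Cntn1. At an unadjusted p under 0.05 the counts were 15 higher and 2 lower. All genes were not counted at unadjusted p here or below, so such counts have no background share. DESeq2 gave 10 higher and 0 lower, and it called 1326 of the 12864 genes to which it gave an adjusted p, in either direction. The median log2 change over the 42 members was 0.128, against 0 over all genes, and 30 of 42 changes were positive.

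These are levels in bulk tissue, where fewer cells of a type and less RNA per cell cannot be told apart, and markers of other cell types moved in the same comparison. Under morphine 3 of 20 myelin markers, 4 of 16 microglia markers and 3 of 12 endothelial markers were lower in water mice and 0 were higher, and 0 of 15 astrocyte markers passed (2 higher and 1 lower unadjusted). Summed myelin markers were at 7310 to 8450 CPM in water-saline and 6220 to 7290 CPM in water-morphine, microglia markers at 831 to 898 and 707 to 803 CPM, and endothelial markers at 499 to 582 and 448 to 503 CPM. Of the 20 striatal projection neuron markers 0 passed in edgeR (0 higher and 1 lower unadjusted), with a median log2 change of -0.20 and 2 of 20 changes positive, and their sum was 10100 to 14400 CPM in water-saline and 7960 to 12600 CPM in water-morphine. Of the 20 cortical and septal markers 1 was lower and 0 higher, with a median of 0.043. The part of these cell types in the changes of the members was not tested.

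The teneurins are large transmembrane proteins that act in partner matching between neurons. Tenm1 was at 29.9 to 40.8 CPM in water-saline (median 33.2) and at 76.1, 74.7, 56.1, 61.6 and 72.5 CPM in water-morphine 2 to 6. The lowest morphine library exceeded the highest saline library. Mean levels were 34.4 ± 3.82 CPM (SD, n = 6) and 68.2 ± 8.84 CPM (SD, n = 5), a log2 change of 0.98 ± 0.141 (SE; adjusted p = 0.00101, edgeR), which is 1.98-fold. This was the largest change of any member in any of the 4 comparisons between groups.

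Tenm4 ran from 173 to 199 CPM in water-saline (median 193) and stood at 254, 306, 213, 288 and 254 CPM in water-morphine 2 to 6. The groups did not overlap, and the log2 change was 0.48 ± 0.0967 (adjusted p = 0.00662, edgeR). The other teneurins did not pass the test. Tenm2 had a log2 change of 0.27 ± 0.0826 (adjusted p = 0.0525, edgeR), and Tenm3, the most abundant teneurin, one of 0.34 ± 0.139 (adjusted p = 0.15, edgeR), with its highest level in water-morphine 4 at 298 CPM.

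Lphn3, a latrophilin and so a receptor for teneurins and FLRTs, was at 110 to 141 CPM in water-saline (median 125) and at 166, 170, 131, 157 and 151 CPM in water-morphine 2 to 6. Only water-morphine 4 lay within the saline range. The log2 change was 0.32 ± 0.0677 (adjusted p = 0.00834, edgeR). Lphn1, the most abundant latrophilin, and Lphn2 had log2 changes of -0.06 and -0.14 and did not pass. No FLRT passed either, with log2 changes from -0.03 for Flrt3, the most abundant of them, to 0.16 for Flrt1.

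On the presynaptic side, Nrxn3, a neurexin, was at 294 to 335 CPM in water-saline (median 322) and at 403, 397, 315, 397 and 391 CPM in water-morphine 2 to 6. Only water-morphine 4 fell inside the saline range, and it lay below the saline mean. The log2 change was 0.25 ± 0.0676 (adjusted p = 0.0281, edgeR). Nrxn2 (0.08), the 3 contactin-associated proteins (-0.08 to 0.26, Cntnap1 being the lowest) and the 3 LAR-type phosphatases (0.10 for Ptprs to 0.13 for Ptprd) did not pass.

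Of the postsynaptic partners, Slitrk4 and Il1rapl1, both partners of LAR-type phosphatases, rose. Slitrk4 was at 12.4 to 17.6 CPM in water-saline (median 14.5) and at 22.6, 18.3, 23.1, 17 and 19.8 CPM in water-morphine 2 to 6. Only water-morphine 5 lay inside the saline range, and the log2 change was 0.47 ± 0.113 (adjusted p = 0.015, edgeR). Il1rapl1, an interleukin-1 receptor-like protein whose human counterpart is known from X-linked intellectual disability, was at 4.94 to 6.58 CPM in water-saline (median 5.89) and at 6.52, 9.43, 7.75, 8.68 and 7.2 CPM in water-morphine 2 to 6. Only water-morphine 2 overlapped the saline libraries, and the log2 change was 0.43 ± 0.121 (adjusted p = 0.0343, edgeR).

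The neuroligins, the LRRTMs and the other 4 SLITRKs did not pass. Nlgn3, a neuroligin of excitatory and inhibitory synapses, had a log2 change of 0.23 ± 0.078 (adjusted p = 0.0722, edgeR). Its 5 water-morphine libraries, at 114 to 133 CPM, all lay above the saline libraries, at 99.6 to 111 CPM. Lrrtm1 had the lowest change of all members, -0.20 ± 0.0894 (adjusted p = 0.179, edgeR), Lrrtm3 had -0.08, and Slitrk5, the most abundant SLITRK, had 0.

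Among the immunoglobulin and cadherin families, Cdh2 was at 95.6 to 116 CPM in water-saline (median 102) and at 146, 129, 112, 119 and 131 CPM in water-morphine 2 to 6. Only water-morphine 4 lay within the saline range, and the log2 change was 0.30 ± 0.0661 (adjusted p = 0.0106, edgeR). Ncam2, a neural cell adhesion molecule known from axon sorting in the olfactory system, was at 38 to 59.1 CPM in water-saline (median 49.2) and at 67.6, 68.7, 62, 62.6 and 65.8 CPM in water-morphine 2 to 6. These groups did not overlap, and the log2 change was 0.38 ± 0.0995 (adjusted p = 0.0264, edgeR).

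Cntn1, a glycosylphosphatidylinositol-anchored contactin that pairs with Cntnap1 at axon-glia contacts, was at 332 to 377 CPM in water-saline (median 357) and at 421, 391, 391, 390 and 411 CPM in water-morphine 2 to 6. The groups did not overlap, and the log2 change was 0.17 ± 0.0492 (adjusted p = 0.035, edgeR), the smallest of the 9. The other 4 contactins, with log2 changes from -0.14 to 0.12, did not pass, and neither did Ncam1 (0.05). Of the SynCAMs, Cadm1 had the highest change at 0.25 ± 0.0883 (adjusted p = 0.0834, edgeR) and Cadm4, the most abundant member, the lowest at -0.12 ± 0.0492 (adjusted p = 0.13, edgeR).

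**Figure D2:**
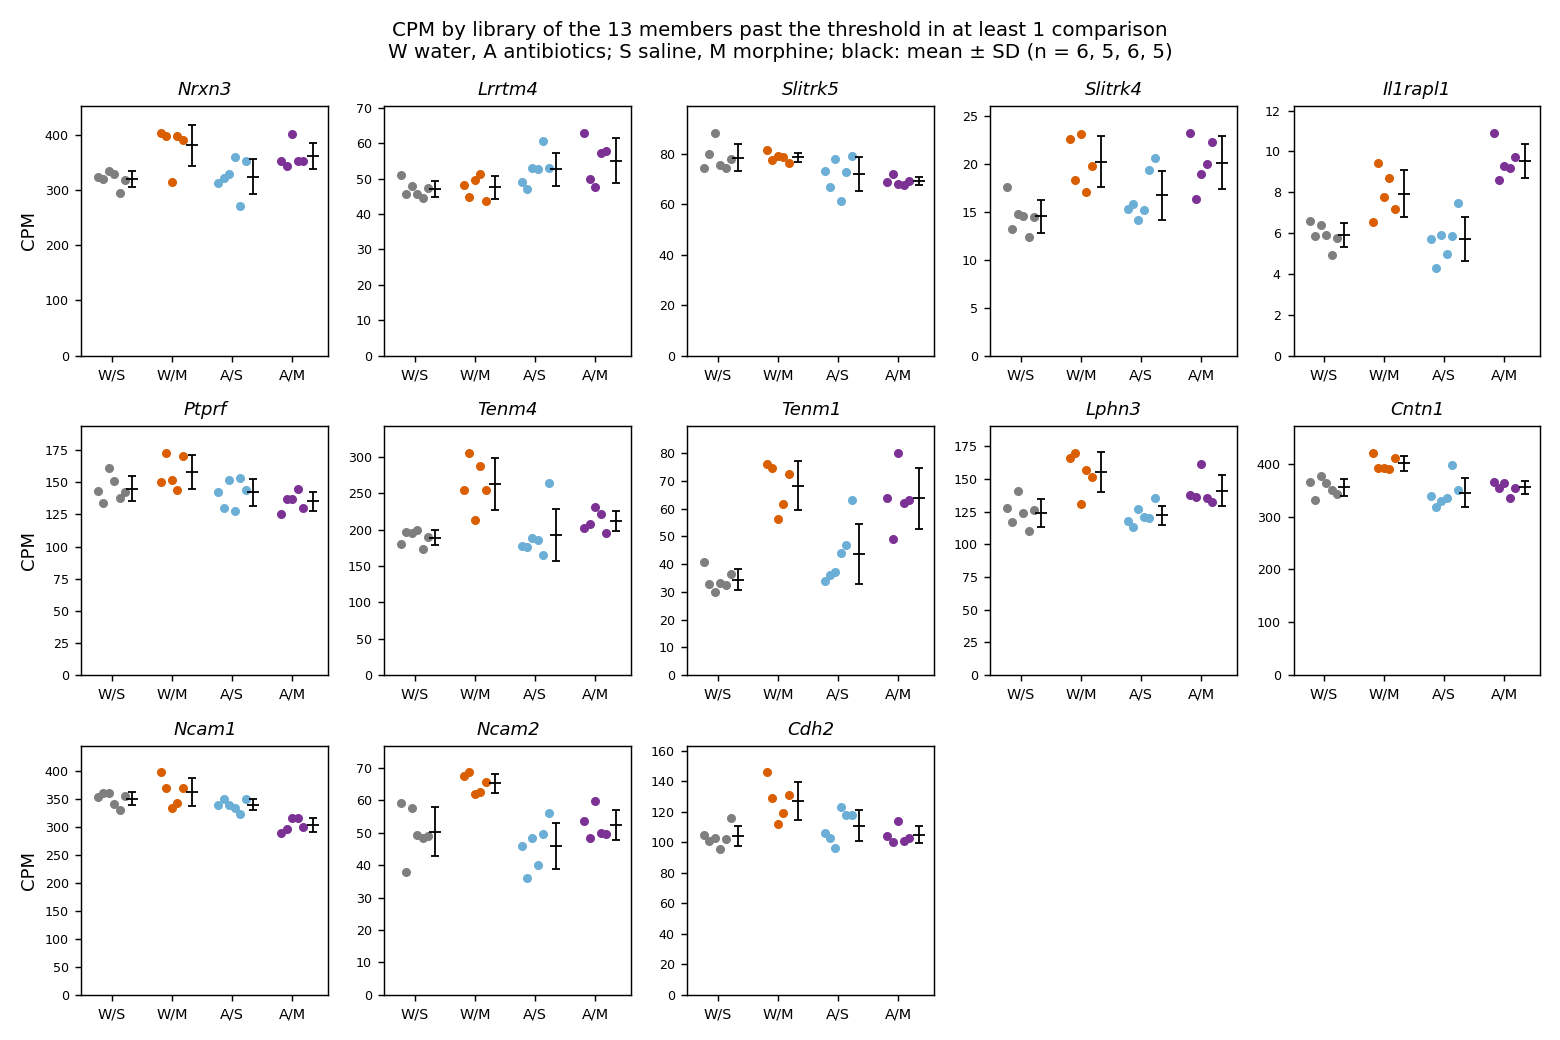
CPM by library (points) with mean ± SD beside them for the 13 members past the threshold in at least 1 comparison between groups, on axes that start at 0. Tenm1 is higher in every water-morphine library (56.1 to 76.1 CPM) than in any water-saline library (29.9 to 40.8 CPM), and Ncam1 is lowest in antibiotic-morphine (288 to 316 CPM).

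These genes are long, and their changes went with transcript length. The median longest coding transcript was 6079 nt for the members and 3259 nt for all tested genes with a known length, and the median gene span 255.6 kb against 25.9 kb. Across the 42 members, Spearman's rho between transcript length and log2 change in water mice was 0.49, and across 13895 genes it was 0.46, given as a description because genes share libraries. With gene span rho was 0.18 across the members and 0.33 across all genes. Genes of 8000 to 10000 nt had a median log2 change of 0.19 and those of 10000 to 14000 nt one of 0.25, with an upper quartile of 0.36, which Tenm1 and Tenm4 exceeded. The range of library length slopes in water-saline did not overlap that in water-morphine, so treatment and this slope cannot be told apart here. With the slope as a covariate 0 members and 0 of all genes passed, and the log2 change of Tenm1 was 0.53 (adjusted p = 0.673, edgeR).

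Tenm1, Tenm4, Lphn3, Slitrk4 and Cdh2 passed whichever single library was left out. Nrxn3, Il1rapl1, Cntn1 and Ncam2 did not pass without water-saline 4 or without water-saline 8, and each also missed the threshold without some others of water-saline 6 and 9 and water-morphine 2, 3, 5 and 6. Among these runs the count of members was lowest, at 5, without water-saline 8, beside 549 of 14551 genes. With the library number as a block in the model, Slitrk4, Cdh2, Nrxn3, Il1rapl1 and Cntn1 did not pass.

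**Figure D3:**
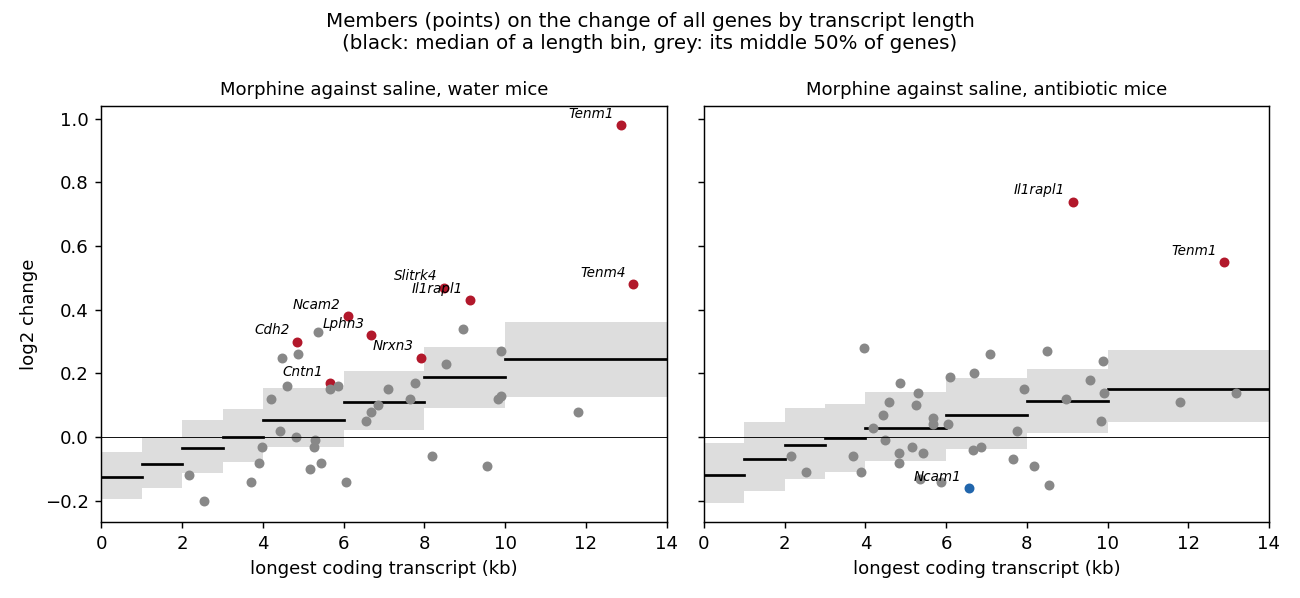
Log2 change under morphine against the length of the longest coding transcript in kb, with members as points (red higher, blue lower, grey not past the threshold) over the median (black) and middle 50% (grey band) of all genes in a length bin. The medians of all genes rise with length in both panels, and Tenm1 and Il1rapl1 lie above the band.

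The same comparison in mice with a depleted microbiome gave fewer calls. In antibiotic mice 2 members were higher under morphine and 1 was lower (edgeR adjusted p under 0.05), while 6.43% of all genes were higher and 6.62% lower. The shares of members, 2 of 42 and 1 of 42, lie below those of all genes. Il1rapl1 and Tenm1 rose, and Ncam1 fell. Unadjusted, 8 were higher and 1 lower. The median log2 change of the members was 0.043, against -0.002 over all genes. Here 13 of 16 microglia markers were lower under morphine and 0 higher, their sum being 658 to 805 CPM in antibiotic-saline and 539 to 645 CPM in antibiotic-morphine. Of the myelin markers 4 of 20 were higher and 3 lower, of the astrocyte markers 0 of 15 higher and 2 lower, and of the endothelial markers 0 of 12 higher and 2 lower. Of the striatal projection neuron and of the cortical and septal markers 0 of 20 passed in edgeR (0 higher and 0 lower, and 0 higher and 1 lower, unadjusted), with median log2 changes of -0.068 and 0.013. Their part in the changes of Il1rapl1, Tenm1 and Ncam1 was not tested.

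Il1rapl1 was at 4.28 to 7.48 CPM in antibiotic-saline (median 5.77) and at 10.9, 8.61, 9.27, 9.17 and 9.74 CPM in antibiotic-morphine 1 to 5. The lowest of the morphine libraries exceeded the highest of the saline libraries. Mean levels were 5.7 ± 1.07 CPM (SD, n = 6) and 9.53 ± 0.844 CPM (SD, n = 5), a log2 change of 0.74 ± 0.12 (adjusted p = 0.000448, edgeR), which is 1.67-fold.

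Tenm1 was at 33.8 to 63.1 CPM in antibiotic-saline (median 40.7) and at 63.9, 49.2, 80.2, 62 and 63.1 CPM in antibiotic-morphine 1 to 5. The groups overlapped through antibiotic-saline 6, at 63.1 CPM, the library with the highest Malat1. The log2 change was 0.55 ± 0.14 (adjusted p = 0.0148, edgeR), and Tenm1 did not pass without antibiotic-morphine 3, the highest library (adjusted p = 0.0534), or when only the 2 groups compared were fitted (adjusted p = 0.0639).

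Ncam1, the neural cell adhesion molecule of neurons and glia, was the member that went down. It was at 323 to 350 CPM in antibiotic-saline (median 338) and at 288, 296, 315, 316 and 300 CPM in antibiotic-morphine 1 to 5. No morphine library reached the lowest saline library, and the log2 change was -0.16 ± 0.0445 (adjusted p = 0.0191, edgeR). Without antibiotic-morphine 1, the lowest library, this call was lost too.

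Several members that rose in water mice had smaller positive values here. Lphn3 had a log2 change of 0.20 ± 0.0679 (adjusted p = 0.0515, edgeR), Slitrk4 one of 0.27 ± 0.112 (adjusted p = 0.122, edgeR), Nrxn3 one of 0.15 ± 0.0677 (adjusted p = 0.138, edgeR), and Tenm4 one of 0.14. Cdh2 had -0.08 and Cntn1 0.04. Flrt2, a ligand of latrophilins, had 0.26 ± 0.0896 (adjusted p = 0.0597, edgeR). Antibiotic-saline 6 held the highest saline level of Tenm1, Tenm4 (264 CPM), Slitrk4 (20.6 CPM), Lphn3 (135 CPM), Il1rapl1 (7.48 CPM) and Ncam2 (56.1 CPM). Without it 7 members passed, 6 higher and 1 lower, beside 1996 of 14547 genes in either direction. With water-morphine 4 left out the count was 6, 5 higher and 1 lower, beside 1963 of 14636 genes. Transcript length again went with the change (rho 0.39 across members, 0.29 across all genes), here with gene span alongside (0.48 and 0.19). The length slopes of antibiotic-morphine lay above those of antibiotic-saline except for that of antibiotic-saline 6, and with the length slope as a covariate none of these 3 calls held: 0 members were higher, and 2, Nlgn3 and Flrt1, were lower. Of all genes 137 of 14564 passed in that run.

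**Figure D4:**
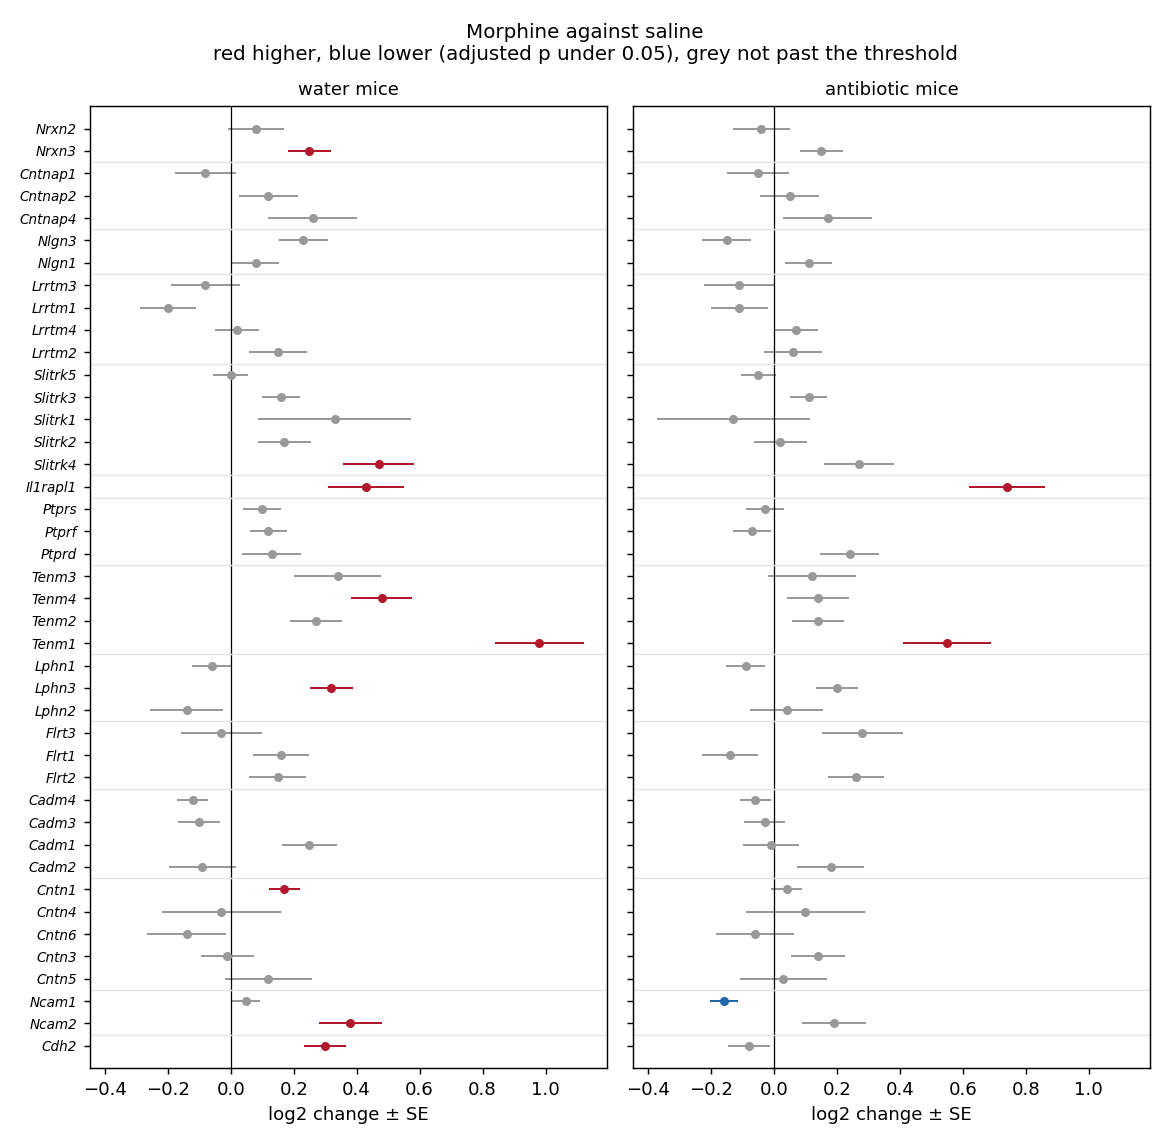
Log2 change ± SE under morphine for each of the 42 members in water mice and in antibiotic mice, red where higher, blue where lower and grey where the adjusted p was not under 0.05. In water mice 9 members are red, and in antibiotic mice Tenm1 and Il1rapl1 are red and Ncam1 is blue.

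The test of the difference between the 2 morphine changes, antibiotic mice minus water mice, passed for 0 of the 42 members, and for 0.467% of all genes (either direction). Unadjusted, 0 were positive and 8 negative, again with no share of all genes to set beside them. The median over the members was -0.088, against -0.005 over all genes. DESeq2 called 2 of the members, Cdh2 (-0.38, adjusted p = 0.019) and Ncam1 (-0.22, adjusted p = 0.0291). It called 185 of the 13146 genes to which it gave an adjusted p. In edgeR Cdh2 had the smallest p, with a difference of -0.38 ± 0.0939 on the log2 scale (95% interval -0.57 to -0.18; adjusted p = 0.0724), followed by Nlgn3 at -0.38 ± 0.111 (adjusted p = 0.134) and Ncam1 at -0.21 ± 0.0628 (adjusted p = 0.142). Cdh2 passed in edgeR when water-saline 9, antibiotic-saline 3 or water-morphine 4 was left out (adjusted p = 0.0451, 0.0394 and 0.0373). Tenm1 had a difference of -0.44 (interval -0.85 to -0.02; adjusted p = 0.372) and Il1rapl1 one of 0.31 (interval -0.04 to 0.66), so the 2 genes called in both kinds of mice were not shown to differ between them.

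Antibiotics were next compared with water, first under saline. There 0 of 42 members passed in the edgeR test or in DESeq2, while 0.542% of all genes were higher and 0.865% lower in antibiotic mice. Unadjusted, 3 members were higher (Tenm1, Nlgn3 and Lrrtm4) and 2 lower (Nlgn1 and Slitrk5). Tenm1 had the highest of these log2 changes, 0.34 ± 0.139 (interval 0.05 to 0.63; adjusted p = 0.209, edgeR). The intervals of Ncam1 (-0.13 to 0.04) and Cdh2 (-0.04 to 0.23) bound their changes on the log2 scale. Here 13 of 20 myelin markers, 8 of 16 microglia markers and 1 of 12 endothelial markers were lower with antibiotics and 0 were higher. Of the 15 astrocyte markers 0 passed. Of the striatal projection neuron and of the cortical and septal markers 0 of 20 passed in edgeR. Their median log2 changes were -0.246 and 0.196. The part of these cell types in the values of the members was not tested.

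Under morphine, 7 members were lower in antibiotic mice than in water mice and 1 was higher (edgeR adjusted p under 0.05), among all genes 9.58% and 8.42%. The share of members that fell, 7 of 42, was above the background, and that of members that rose, 1 of 42, below it. No test compares these shares, and the members were chosen with earlier results of these data known. The lower genes were Ncam1, Ncam2, Cdh2, Cntn1, Tenm4, the LAR-type phosphatase Ptprf and Slitrk5, and the higher gene was Lrrtm4. Unadjusted, 3 were higher and 10 lower, with a median log2 change of -0.074 against 0.001 over all genes. This comparison uses the same morphine libraries as the comparisons above. Of the microglia markers 13 of 16 were lower with antibiotics, of the myelin markers 9 of 20 lower and 2 higher, of the astrocyte markers 6 of 15 lower and 1 higher, and of the endothelial markers 4 of 12 lower and 1 higher. Of the striatal projection neuron markers 1 of 20 was lower and 0 were higher (median log2 change -0.109), and of the cortical and septal markers 0 of 20 passed in edgeR (0 unadjusted; median 0.16). Summed astrocyte markers were at 6470 to 6680 CPM in water-morphine and 5810 to 6500 CPM in antibiotic-morphine. Their part in the changes of the members was not tested.

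Ncam1 stood at 397, 369, 334, 342 and 368 CPM in water-morphine 2 to 6 and at 288 to 316 CPM in antibiotic-morphine. The groups did not overlap, and means of 362 ± 25 and 303 ± 12.1 CPM (SD, n = 5 each) gave a log2 change of -0.26 ± 0.0464 (adjusted p = 0.000489, edgeR). Its paralog Ncam2 was at 62 to 68.7 CPM in water-morphine and at 53.8, 48.5, 59.8, 50 and 49.6 CPM in antibiotic-morphine 1 to 5. The groups did not overlap either, and the log2 change was -0.32 ± 0.104 (adjusted p = 0.0357, edgeR).

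Cdh2 was at 112 to 146 CPM in water-morphine and at 104, 100, 114, 101 and 103 CPM in antibiotic-morphine 1 to 5, with only antibiotic-morphine 3 above the lowest water-morphine library. The log2 change was -0.28 ± 0.0691 (adjusted p = 0.00623, edgeR). Cntn1 was at 390 to 421 CPM in water-morphine and at 365, 354, 364, 336 and 354 CPM in antibiotic-morphine 1 to 5, groups that did not overlap. Its log2 change was -0.18 ± 0.0515 (adjusted p = 0.0195, edgeR).

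Tenm4 was at 213 to 306 CPM in water-morphine and at 202, 208, 231, 222 and 196 CPM in antibiotic-morphine 1 to 5, and the groups overlapped through water-morphine 4. The log2 change was -0.31 ± 0.101 (adjusted p = 0.0354, edgeR). Tenm1 had a log2 change of -0.10 ± 0.143 (adjusted p = 0.698, edgeR) and did not pass. Set beside water-saline, the antibiotic-morphine means were 105 and 104 CPM for Cdh2, 52.4 and 50.3 CPM for Ncam2, 355 and 355 CPM for Cntn1, and 212 and 189 CPM for Tenm4. The antibiotic-morphine value comes first in each pair. For the remaining lower genes it was below that of water-saline: 303 and 350 CPM for Ncam1, 69.2 and 78.4 CPM for Slitrk5, and 135 and 145 CPM for Ptprf. These groups were not tested against each other.

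Ptprf, which encodes LAR itself, was at 150, 173, 152, 144 and 170 CPM in water-morphine 2 to 6 and at 125, 137, 137, 145 and 130 CPM in antibiotic-morphine 1 to 5. Only antibiotic-morphine 4 reached the water-morphine range, and the log2 change was -0.23 ± 0.0628 (adjusted p = 0.0136, edgeR). Slitrk5, a SLITRK known from corticostriatal circuits, was at 81.4, 77.6, 79.1, 78.8 and 76.2 CPM in water-morphine 2 to 6 and at 68.7, 72, 68.2, 67.7 and 69.4 CPM in antibiotic-morphine 1 to 5. All antibiotic libraries lay below all water libraries, and the log2 change was -0.18 ± 0.0579 (adjusted p = 0.0296, edgeR).

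Lrrtm4, a postsynaptic partner of neurexins and of heparan sulfate proteoglycans, was the member above the threshold in the other direction. It was at 48.3, 44.7, 49.6, 51.4 and 43.6 CPM in water-morphine 2 to 6 and at 62.9, 49.9, 47.5, 57.3 and 57.9 CPM in antibiotic-morphine 1 to 5. Antibiotic-morphine 2 and 3 lay within the water-morphine range, and the log2 change was 0.21 ± 0.0725 (adjusted p = 0.0434, edgeR). This call was lost with no filter on low counts (adjusted p = 0.0565), with only the groups compared fitted (0.0825), with the cortical marker score as a covariate (0.14), without both libraries with the highest Malat1 (0.0991), and without 6 of the 22 libraries in turn. Its water-saline level was 47 ± 2.33 CPM (SD, n = 6) and its antibiotic-saline level 52.6 ± 4.67 CPM (SD, n = 6).

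Several of these calls depended on single libraries. Without antibiotic-morphine 1, antibiotic-morphine 4 or water-morphine 2 in turn, 4 members passed, beside 1877, 2038 and 2082 of all genes. Without water-morphine 3, water-morphine 6 or antibiotic-morphine 5 in turn, 5 did, beside 2127, 2051 and 2433 of all genes. With every library kept, 2621 of 14564 genes passed, so calls over all genes fell in these runs as well. Slitrk5 also missed the threshold without antibiotic-morphine 3, Tenm4 without water-morphine 5 or antibiotic-morphine 2, and Ncam2 without antibiotic-morphine 2. Leaving out both libraries with the highest Malat1 also ended the calls of Slitrk5, Cntn1 and Ncam2, and the cortical marker score as a covariate that of Tenm4. Ncam1 and Cdh2 passed whichever library was left out and under each of the 9 other settings tried. Ptprf passed whichever library was left out, but not with the library number as a block in the model (adjusted p = 0.059, edgeR). This replicate block also ended the calls of Slitrk5, Tenm4, Cntn1 and Lrrtm4. The length slope as a covariate left 1 member higher and 9 lower, beside 2674 of 14564 genes in either direction.

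**Figure D5:**
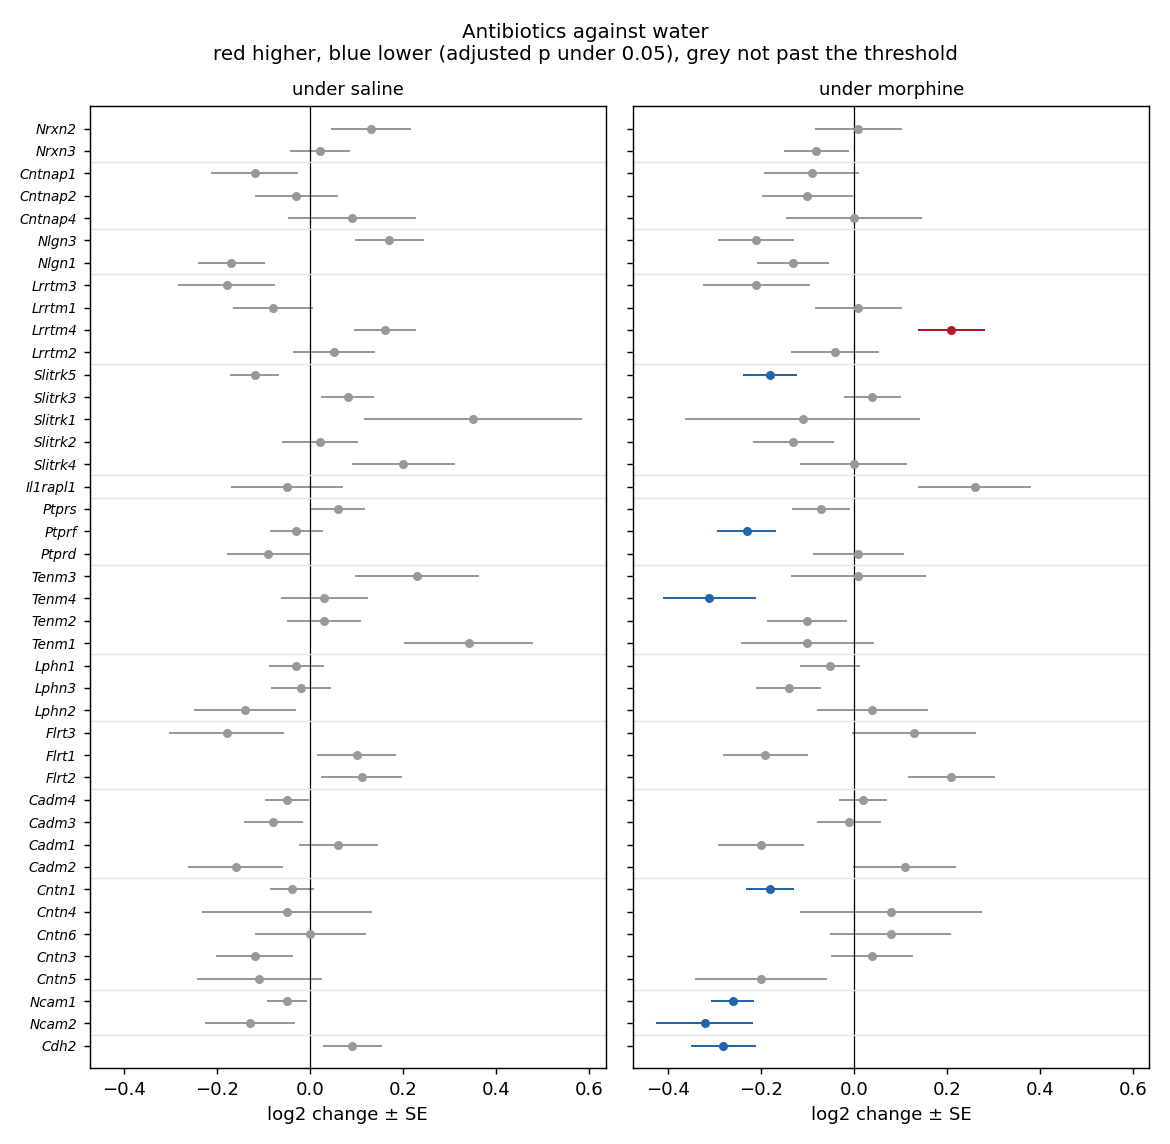
Log2 change ± SE of antibiotics against water for each member under saline and under morphine, red where higher, blue where lower and grey where the adjusted p was not under 0.05. No member is coloured under saline, and under morphine 7 are blue and Lrrtm4 is red.

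Over the 4 comparisons, 13 members (31%) passed at least once and 29 passed in none, while 26.7% of all genes passed at least once, a share near that of the members.

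The intracellular partners of these proteins were looked at through 32 scaffold genes, whose counts stand beside the shares of all genes called. In water mice 0 rose (7 unadjusted) and 1 fell under morphine (all genes 3.91% and 2.67%): Dlgap3, a postsynaptic scaffold of striatal neurons, went from 511 ± 61.5 to 403 ± 38.4 CPM (log2 change -0.34; adjusted p = 0.0314, edgeR). In antibiotic mice 1 rose, the LAR-binding liprin gene Ppfia1 (log2 change 0.21; edgeR adjusted p = 0.0225), and 1 fell, Lin7b (-0.38; adjusted p = 0.00972), which takes part in the LIN7 scaffold under several adhesion molecules, against 6.43% and 6.62% of all genes. Under saline 0 differed between antibiotic and water mice (0 higher and 4 lower unadjusted; all genes 0.542% and 0.865%). Under morphine 0 were higher and 2 lower with antibiotics (all genes 8.42% and 9.58%), Lin7b (-0.36; edgeR adjusted p = 0.0108) and Dlg1, which encodes SAP97 (-0.19; adjusted p = 0.045).

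A further 45 adhesion genes outside the set were read in the same way, against the same shares of all genes. In water mice 4 of 45 rose under morphine (all genes 3.91%) and 0 fell, among them the sidekick genes Sdk1 (log2 change 0.49; edgeR adjusted p = 0.00324) and Sdk2 (0.62; adjusted p = 0.0276) and the L1-family gene Chl1 (0.52; adjusted p = 0.0257). In antibiotic mice 1 of 45 rose, Sdk1 (0.28; edgeR adjusted p = 0.0392), and 3 of 45 fell (all genes 6.43% and 6.62%), among them L1cam (-0.27; adjusted p = 0.00189) and Lrrc4b (-0.18; adjusted p = 0.0116). Under saline 0 passed in edgeR (1 higher and 0 lower unadjusted). Under morphine 0 were higher and 5 of 45 lower with antibiotics (all genes 8.42% and 9.58%), led by L1cam, which went from 307 ± 18.9 to 226 ± 12.3 CPM (-0.44; edgeR adjusted p = 6.43e-06), with Lrfn5 (-0.39; adjusted p = 0.00148) and Lrrc4c (-0.27; adjusted p = 0.014) after it. In antibiotic mice and for the lower genes under morphine these shares are near or below those of all genes.

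Within groups the members did not vary alike. The within-group SD of log2 CPM had a median of 0.158, was lowest for Ncam1 (0.0646) and highest for Slitrk1 (0.404). Deviations from the group means of 15 members correlated at 0.5 or more with the cortical marker score over the 22 libraries, those of 9 at -0.5 or less, and those of 18 lay between. Slitrk1 (Pearson's r 0.85), Cntn4 (0.83) and Cntn6 (0.80) stood at 1 end and Cntnap2 (-0.86) and Lphn2 (-0.71) at the other. Slitrk1 shows this by library: it was at 98.1 CPM in antibiotic-saline 5 and at 31.8 to 65.9 CPM in the other antibiotic-saline libraries. Tenm1 (-0.03), Cdh2 (-0.10) and Slitrk5 (-0.01) had values near 0. These values are descriptions, since the score and the members are read from the same libraries. With the score as a covariate 13 members were higher and 1 lower under morphine in water mice, and 7 were higher and 1 lower in antibiotic mice. The calls over all genes rose as well, from 959 to 1507 (10.3%) in water mice and from 1900 to 2419 (16.6%) in antibiotic mice, beside 33.3% and 19% of the members.

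The same deviations were also correlated between members. The pairs named are extremes picked from all pairs, with no pairs of other genes set beside them. Nlgn3 and Flrt1 had r = 0.87, Lrrtm3 and Flrt3 0.85, and Nrxn2 and Slitrk1 0.85, over 22 libraries. Slitrk1 and Lphn2 ran in opposite directions (r = -0.93). Slitrk1 (0.85), Nrxn2 (0.7), Lphn2 (-0.71), Flrt3 (-0.63) and Lrrtm3 (-0.61) also followed the cortical marker score. Nlgn3 (0.11) and Flrt1 (0.33) did so less, and both had their highest antibiotic-saline level in antibiotic-saline 6. The part of these library differences in the pairs was not tested.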

How the data were processed

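Raw read counts per gene, as the authors deposited them, were used throughout. Per the submitters' processing notes the reads were aligned with STAR 2.4.0, and FastQC and edgeR were used, with the build, annotation and strand setting not given in the sources used here. Overlapping and antisense genes can therefore share reads. A label field says polyA RNA, whereas the protocol starts cDNA synthesis from total RNA. Summary entries, 20.6% to 26.4% of each library's counts, were removed. After filterByExpr by group and TMM scaling, 1 model with the 4 groups was fitted to all 22 libraries (R 4.3.3, edgeR 4.0.16). Contrasts used the two-sided quasi-likelihood F-test, with Benjamini-Hochberg adjustment over 14564 genes and a threshold of 0.05. The SE is the size of the log2 change divided by the square root of F.

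Members and gene lists were chosen with earlier results of these data known. Members past the threshold and the most abundant of each family are described, with up to 3 genes by p per comparison from both pathway lists. The longest coding transcript came from GENCODE M21, known for 95.4% of tested genes, and Lphn1, Lphn2 and Lphn3 were matched to RefSeq as Adgrl genes. No pair among 50 within-group pairs of libraries was a duplicate (chi-square per degree of freedom 3.47 to 26). The script was tested on simulated data. Alternatives used DESeq2 1.42.0, limma 3.58.1, other scalings, filters, covariates and left-out libraries.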

Additional observations from a re-analysis of the deposited data

Results flagged for a closer look

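In a group of 5 or 6 libraries, a library was singled out where its gap to the nearest other library took up more of the group's range than Dixon's 95% critical value. Of 168 combinations of member and group, 17 were singled out in this way, among 13 members, and chance gives about 1 in 20.

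Of these, 5 fell in water-morphine 4, the water-morphine library with the highest cortical marker score. Nrxn3 was lowest there at 315 CPM (next 391 CPM). Highest there were Lrrtm2 at 65.1 CPM (next 54.5 CPM), Slitrk1 at 82 CPM (next 50.9 CPM), Ptprd at 207 CPM (next 161 CPM) and Cadm2 at 118 CPM (next 89.9 CPM).

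Antibiotic-saline 6, the library with the highest Malat1, had the highest Nlgn3 at 159 CPM (next 116 CPM), Tenm4 at 264 CPM (next 189 CPM) and Flrt1 at 61 CPM (next 46.6 CPM). In antibiotic-saline 5, which had the highest cortical marker score of all libraries, Lrrtm3 was lowest at 76.4 CPM (next 109 CPM) and Cntn6 highest at 30.2 CPM (next 20.4 CPM). Cntnap1 was lowest in antibiotic-saline 4 at 207 CPM (next 280 CPM).

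Among antibiotic-morphine libraries, number 3 had the highest Nrxn3 at 402 CPM (next 353 CPM), Lphn3 at 161 CPM (next 138 CPM) and Cdh2 at 114 CPM (next 104 CPM). Number 1 had the highest Ptprd at 194 CPM (next 163 CPM) and Cntn6 at 24 CPM (next 20.2 CPM), and number 4 the highest Nlgn3 at 119 CPM (next 107 CPM).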

How the results depend on the processing

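No call reversed its direction under any alternative run. In water mice given morphine, where 9 members passed, 4 passed with the replicate block, 0 with the length slope as a covariate and 14 with the cortical marker score as a covariate, and 5 to 11 with a library left out. In antibiotic mice given morphine (3 members) the score gave 8, leaving out both libraries with the highest Malat1 gave 5, and leaving out single libraries 2 to 7. For antibiotics under morphine (8 members) the replicate block left 3 and single libraries left 4 to 10. For the difference between the morphine changes (0 members), DESeq2 gave 2, leaving out both libraries with the highest Malat1 gave 1, and single libraries 0 to 1. For antibiotics under saline 0 passed under every alternative run. Fitting only the groups compared ended the calls of Tenm1 in antibiotic mice (adjusted p = 0.0639, edgeR) and of Lrrtm4 for antibiotics under morphine (adjusted p = 0.0825, edgeR), which was lost under 5 of 9 settings. The cause of these shifts was not tested.

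Over all genes, the length slope as a covariate took the calls in water mice given morphine from 959 to 0 and those in antibiotic mice from 1900 to 137, and the replicate block took the first count to 281. For antibiotics under morphine the replicate block took the calls from 2621 to 2003. With single libraries left out, calls under morphine ran from 509 to 1118 in water mice and from 1084 to 2048 in antibiotic mice. For antibiotics under morphine they ran from 1877 to 2824. Deviations of same-numbered libraries of different groups correlated at -0.48 to 0.35 (25 pairs, median 0.02, 8 over 0.1). Differently numbered pairs were not set beside them, so these values cannot settle whether the numbers pair libraries. Over the members and comparisons called, the call was kept in 540 checks with an alternative and lost in 80. Many of these checks left out a library from outside the groups compared, and no call was lost in those. The kept count therefore overstates how stable the calls were. A fit of only the groups compared was not run for the difference, since it uses all 4. Low counts limit Il1rapl1 most, with a lowest count of 48.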
